A study of Mus musculus with 6 samples.

Results

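The Serpin family was described in total liver RNA of 3 TLR3-/- mice and 3 TLR3wt mice, measured on 1 oligonucleotide array per mouse. Members were taken by symbol: probe sets that the array annotation assigned to exactly 1 gene whose symbol begins with Serpin, a clade letter and a number. The rule matched 48 genes, each with 1 probe set. Of these, 30 stood at the lowest deposited value of 5 (log2 signal) on all 6 arrays and were left out, so 18 genes were described, of 10347 genes with 1 symbol above 5 on at least 1 array. The TLR3-/- mice lack Toll-like receptor 3, an endosomal receptor for double-stranded RNA, and the TLR3wt mice carry the intact gene. Both groups were C57Bl/6 mice per the series design, untreated, 3 months old and bred in house under specific-pathogen-free conditions. How the TLR3 allele was made, the sex of the mice and whether the groups were littermates are not given in the sources used here.

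Serpins are a family of proteins with a shared fold, most of which inhibit proteases. An inhibitory serpin presents a reactive loop as bait. The protease cuts the loop and is trapped in a covalent complex as the serpin changes shape. Hepatocytes secrete many of the serpins of blood plasma, among them the inhibitors of neutrophil elastase (clade a), thrombin (clades c and d), plasmin (clade f) and complement C1 (clade g). Some members are not inhibitors and carry hormones (Serpina6, Serpina7) or assist collagen folding (Serpinh1). Clade b members lack a classical secretion signal and act mostly inside cells. Several plasma serpins belong to the acute-phase response, in which the liver changes its output of plasma proteins during inflammation.

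Promoter sequences show how alike the closest relatives in the family are and are printed for the genes on which the results turn. They come from RefSeq (assembly GRCm38.p6), cover 250 bases before to 50 bases after the gene's start, and run 5′ to 3′ on the gene's strand. Of the 18 genes, 13 had an entry. Capitals mark matches, on either strand, to the motifs searched: the TATA box TATAAA, the HNF1 core GTTAAT, the STAT site TTCNNNGAA, the C/EBP-like site TTGCNNAA, the heat shock elements GAANNTTC and TTCNNGAA, the E-box CACGTG and the glucocorticoid-type palindrome ACANNNTGT. Serpina1c and Serpina1d are shown because both lay higher in all TLR3-/- livers and are close relatives, and Serpinh1 because it had the smallest p of the family. Serpina3n and Serpina11 are shown as 2 of the genes that were highest in the same TLR3wt mouse.
Serpina1c, chr12:103904901-103905200, minus strand:
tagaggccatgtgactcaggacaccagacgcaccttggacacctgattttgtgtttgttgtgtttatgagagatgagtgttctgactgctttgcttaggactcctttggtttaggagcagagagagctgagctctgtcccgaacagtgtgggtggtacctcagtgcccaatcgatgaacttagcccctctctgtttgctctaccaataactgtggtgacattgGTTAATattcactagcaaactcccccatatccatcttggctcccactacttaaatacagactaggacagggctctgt
Serpina1d, chr12:103773584-103773883, minus strand:
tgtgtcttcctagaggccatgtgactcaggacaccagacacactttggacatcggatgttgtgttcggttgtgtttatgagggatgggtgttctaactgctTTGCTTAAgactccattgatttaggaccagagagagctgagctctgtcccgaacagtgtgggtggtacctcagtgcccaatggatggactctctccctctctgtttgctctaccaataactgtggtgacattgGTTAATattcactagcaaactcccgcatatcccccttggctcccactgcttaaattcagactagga
Serpina11, chr12:103989908-103990207, minus strand:
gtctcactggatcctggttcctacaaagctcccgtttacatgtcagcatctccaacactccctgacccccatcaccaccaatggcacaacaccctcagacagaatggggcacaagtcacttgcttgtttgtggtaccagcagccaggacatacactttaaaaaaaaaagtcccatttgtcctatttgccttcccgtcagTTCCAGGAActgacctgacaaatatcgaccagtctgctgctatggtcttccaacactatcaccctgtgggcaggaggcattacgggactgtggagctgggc
Serpina3n, chr12:104406458-104406757, plus strand:
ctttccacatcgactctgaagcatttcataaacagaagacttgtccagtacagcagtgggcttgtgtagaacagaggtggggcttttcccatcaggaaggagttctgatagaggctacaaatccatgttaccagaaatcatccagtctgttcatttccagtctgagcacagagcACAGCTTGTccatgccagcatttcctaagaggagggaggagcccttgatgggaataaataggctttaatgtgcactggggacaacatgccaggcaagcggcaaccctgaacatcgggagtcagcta
Serpinh1, chr7:99353190-99353489, minus strand:
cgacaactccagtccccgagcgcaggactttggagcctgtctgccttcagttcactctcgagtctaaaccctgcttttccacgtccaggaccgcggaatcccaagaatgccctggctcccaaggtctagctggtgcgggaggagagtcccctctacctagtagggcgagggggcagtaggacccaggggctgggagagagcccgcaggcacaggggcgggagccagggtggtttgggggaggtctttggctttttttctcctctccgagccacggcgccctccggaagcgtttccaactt

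The Serpina1c and Serpina1d promoters were identical at 265 of 311 aligned positions (85.2%). Over the 10 pairs of Serpina1a to Serpina1e the identity ranged between 63.5% and 91.4%, whereas Serpina1c and Serpina3n, of the same clade, shared 43.2%. All of Serpina1a to Serpina1e held the HNF1 core, which 7.1% of 32851 promoters of this length held. HNF1 is a transcription factor of hepatocytes. The letters TTGCTTAA of the C/EBP-like site (10.8% of promoters) occurred in Serpina1d and were not found in this window of Serpina1c. The printed Serpina11 window held 1 STAT site (8.3% of promoters), that of Serpina3n held 1 glucocorticoid-type palindrome (6.85% of promoters), and that of Serpinh1 held none of the motifs. A match in letters is no evidence of binding.

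The arrays had between 15081 and 15226 probe sets above 5, and their medians over the 16639 tested probe sets lay between 6.54 and 6.59. Over these probe sets, arrays of the same group correlated at 0.984 to 0.991 and arrays of different groups at 0.980 to 0.988. The precision of every value is limited by the 3 arrays in a group. Signal of Tlr3 itself was at 5 in every liver, so the array gave no check of the genotype labels. In limma, 31 probe sets (0.186%) passed the adjusted p of 0.05, 2406 (14.5%) had an unadjusted p under 0.05, and in 3337 (20.1%) the TLR3-/- and TLR3wt values did not overlap. The 31 calls shrank to between 0 and 13 in the fits that left out 1 mouse, any of the 6.

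No serpin of the untreated liver passed the test between TLR3-/- and TLR3wt mice, and the share of serpins whose groups did not overlap lay near that of all tested probe sets. None of the 18 genes passed limma's adjusted p of 0.05 (lowest 0.199), against the background of 0.186%, and 1 of them, Serpinh1, had an unadjusted p under 0.05, against 14.5% of all tested probe sets. The groups did not overlap in 4 of the 18 genes, against 20.1% of all tested probe sets: Serpina1c and Serpina1d were higher in the TLR3-/- livers, and Serpina11 and Serpinh1 were lower. The group mean was higher in TLR3-/- livers for 11 genes and lower for 7, against 6300 higher and 4047 lower of all 10347 genes. Serpinb1a and Serpinb6b were above 5 only on TLR3-/- arrays, so they could only count as higher. Without clade b 8 genes were higher and 7 lower. The median log2 difference, TLR3-/- minus TLR3wt, was 0.018 over the family and 0.033 over all 10347 genes. In 11 of the 18 genes the difference was smaller than 0.1 in size, and in 1 it was at least 0.5. The median size of the difference was 0.083 over the family and 0.092 over all genes. Without TLR3-/- replicate 2 the groups did not overlap in 7 of the 18 genes, against 28% of all probe sets in that fit, and without TLR3wt replicate 3 in 7, against 29.7%. In limma 2 genes had an unadjusted p under 0.05 without either of these or without TLR3-/- replicate 3. They were Serpinh1 with Serpinb1a, Serpina4-ps1 or Serpina7. Serpinb1a stood at 5 on all TLR3wt arrays, so its p rests on a group without spread. A signal from whole liver cannot tell apart fewer cells of a type and less RNA per cell.

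**Figure D1:**
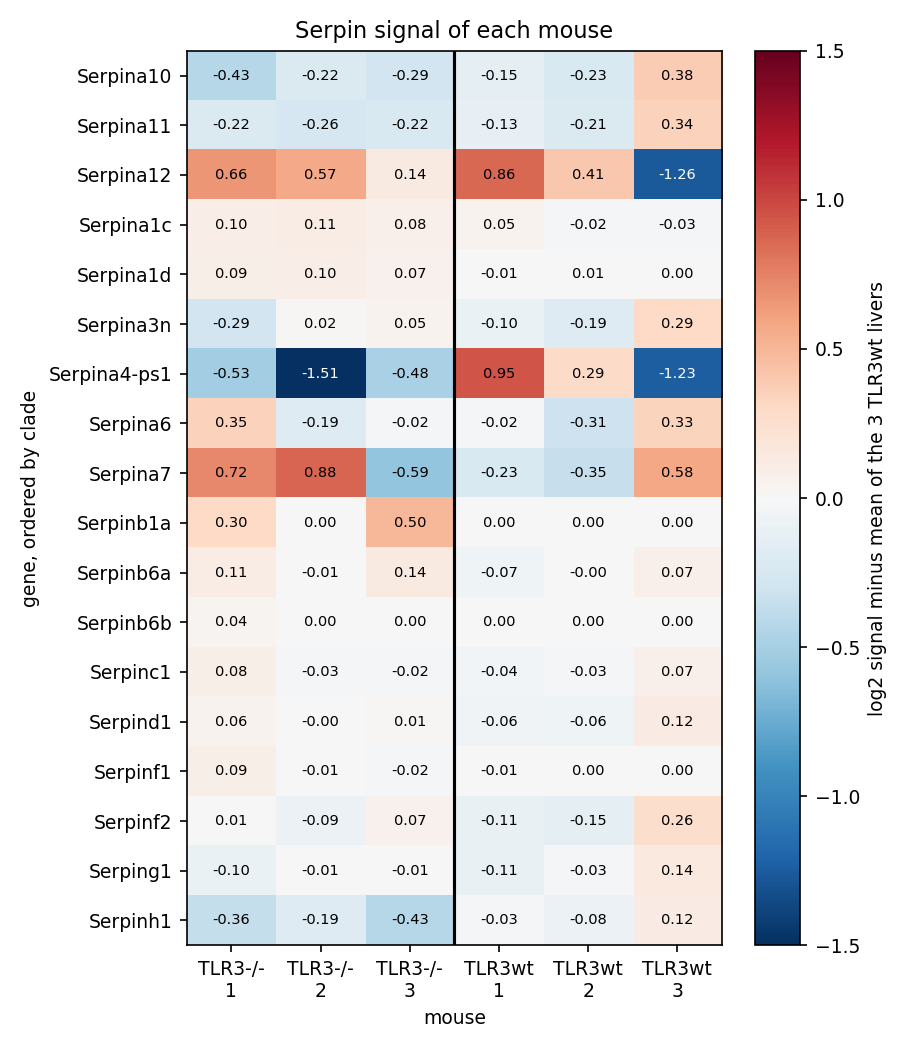
Log2 signal of the 18 Serpin genes (rows, by clade) in the 3 TLR3-/- and 3 TLR3wt livers (columns), each given relative to the mean of the TLR3wt livers. TLR3wt replicate 3 holds the highest value of 7 genes, among them Serpina10 (0.38) and Serpina11 (0.34), and the lowest value of Serpina12 (-1.26). Over all tested genes it holds the highest value of 16.2% and the lowest of 24%.

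Clade a held 15 matched genes, of which 9 were above 5 on at least 1 array and 6 (Serpina1f, Serpina3a, Serpina3b, Serpina5, Serpina9 and Serpina16) stood at 5 on all arrays. All 9 measured genes except Serpina7, which lies on chromosome X, belong to the cluster of 28 Serpina genes that the reference table places on chromosome 12. The median log2 difference of clade a was 0.048, with 5 genes higher and 4 lower in TLR3-/- livers.

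The Serpina1 genes encode forms of alpha-1-antitrypsin, the plasma inhibitor of neutrophil elastase, and were the steadiest of clade a. Serpina1c had a log2 signal of 12.88, 12.88 and 12.86 in the TLR3-/- livers (replicates 1, 2 and 3, as in all that follows), against 12.83, 12.75 and 12.74 in the TLR3wt livers. All 3 TLR3-/- livers lay above all 3 TLR3wt livers, by a mean difference of 0.097 (95% interval -0.029 to 0.222, limma adjusted p = 0.448), or 1.07-fold. Serpina1d had 11.05, 11.07 and 11.03 in TLR3-/- livers, against 10.96, 10.97 and 10.97 in TLR3wt livers, a difference of 0.086 (95% interval -0.029 to 0.201, limma adjusted p = 0.462). Again the groups did not overlap, and the pooled SD within groups (0.034 for Serpina1c and 0.014 for Serpina1d) was larger than that of 4.72% and 1.29% of tested probe sets.

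A pair of further probe sets was annotated to all of Serpina1a to Serpina1e and was not part of the 18. Probe set 10402399 read 12.29, 12.31 and 12.26 in TLR3-/- livers, against 12.31, 12.28 and 12.29 in TLR3wt livers, a difference of -0.0058. Probe set 10402409 read 12.92, 12.95 and 12.92 in TLR3-/- livers, against 12.98, 12.97 and 12.98 in TLR3wt livers, a difference of -0.046 (limma adjusted p = 0.710). In the last the groups did not overlap and the TLR3-/- livers were the lower ones, opposite to Serpina1c and Serpina1d. The annotation thus did not separate these genes at every probe set. Probe and transcript sequences were not compared, so the values of Serpina1c and Serpina1d as single genes are uncertain.

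**Figure D2:**
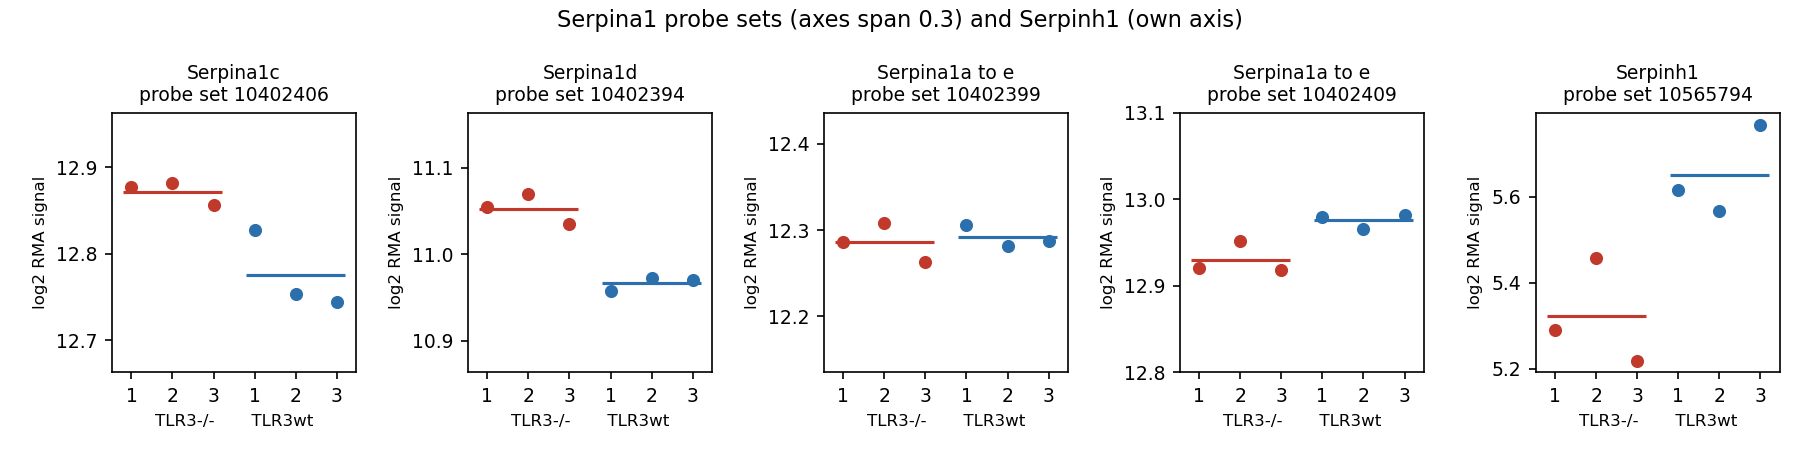
Log2 signal in each TLR3-/- (red) and TLR3wt (blue) liver for the Serpina1c and Serpina1d probe sets, the probe sets annotated to all of Serpina1a to Serpina1e, and Serpinh1, with lines at the group means. Serpina1c and Serpina1d lie higher in TLR3-/- livers by 0.097 and 0.086, and the differences of probe set 10402409 and Serpinh1 are -0.046 and -0.328.

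The plasma inhibitors Serpina10, Serpina3n and the little-characterised Serpina11 were each highest in the same animal, TLR3wt replicate 3. Serpina10, the protein Z-dependent inhibitor of coagulation factor X, read 8.12, 8.33 and 8.26 in TLR3-/- livers, against 8.40, 8.32 and 8.93 in TLR3wt livers. The difference was -0.31 (95% interval -0.72 to 0.095, limma adjusted p = 0.449), and it was -0.12 without TLR3wt replicate 3, where the groups overlapped. Serpina11 read 7.21, 7.17 and 7.21 in TLR3-/- livers, against 7.30, 7.21 and 7.77 in TLR3wt livers. Its groups did not overlap, but by a margin of 7.2141 in TLR3-/- replicate 1 against 7.2148 in TLR3wt replicate 2. The difference was -0.23 (limma adjusted p = 0.525) and -0.061 without TLR3wt replicate 3. Serpina3n, an acute-phase inhibitor related to human antichymotrypsin, read 10.27, 10.58 and 10.61 in TLR3-/- livers, against 10.46, 10.36 and 10.85 in TLR3wt livers. Its groups overlapped, and the difference of -0.073 (limma adjusted p = 0.868) turned to 0.074 without TLR3wt replicate 3.

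That mouse also had the highest mean over a list of 27 acute-phase genes and regulators of the response outside the family. Of the 27 genes 26 had a lower mean in TLR3-/- livers (median -0.32), and 0 passed limma's adjusted p. In limma 8 had an unadjusted p under 0.05, all lower, against 14.5% of all tested probe sets. The mean over the 27 genes relative to the TLR3wt livers was -0.81, -0.69 and -0.64 in the TLR3-/- livers, against -0.48, -0.23 and 0.71 in the TLR3wt livers. The genes of the list with the smallest p were the serum amyloid gene Saa3 (difference -1.52), the interleukin-6 receptor gene Il6ra (-0.60) and the orosomucoid gene Orm2 (-1.30), with limma adjusted p of 0.181, 0.187 and 0.194. Of these, Il6ra was highest in TLR3wt replicate 2 (8.17, against 8.15 in TLR3wt replicate 3). The part of the acute-phase level in the serpin values was not tested.

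**Figure D3:**
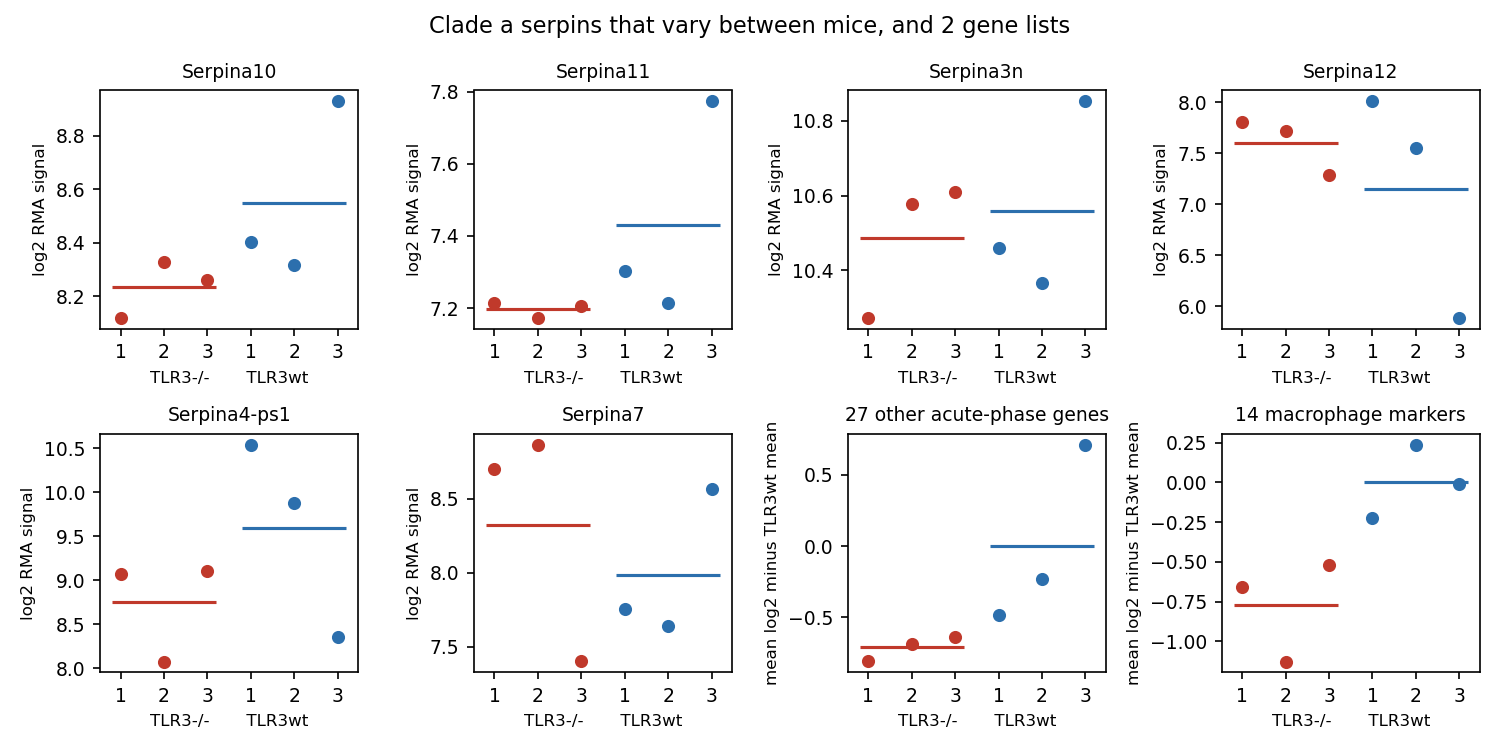
Log2 signal of 6 clade a serpins in each TLR3-/- (red) and TLR3wt (blue) liver with group means as lines. Also shown is the mean of 27 acute-phase genes and regulators other than serpins and of 14 macrophage markers, relative to the TLR3wt mean. TLR3wt replicate 3 stands at 8.93 for Serpina10, 7.77 for Serpina11 and 10.85 for Serpina3n, above all other mice, and at 5.89 for Serpina12, below all others.

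Serpina12 and Serpina4-ps1, neighbours on chromosome 12 with 1 gene between them, varied most between mice. Serpina12 encodes vaspin, an adipokine inhibitor of a kallikrein. It read 7.81, 7.72 and 7.29 in TLR3-/- livers, against 8.01, 7.56 and 5.89 in TLR3wt livers, so the TLR3wt livers held both the highest and the lowest value. The difference was 0.45 (95% interval -0.85 to 1.76, limma adjusted p = 0.748), and -0.18 without TLR3wt replicate 3. Serpina4-ps1, a transcribed pseudogene per the reference table, read 9.07, 8.08 and 9.11 in TLR3-/- livers, against 10.54, 9.88 and 8.36 in TLR3wt livers. It had the largest difference of the family, -0.84 (95% interval -2.26 to 0.58, limma adjusted p = 0.567). TLR3wt replicate 3 lay within the TLR3-/- range. Without TLR3wt replicate 1 the difference was -0.37. Without TLR3wt replicate 3 it was -1.46, the groups did not overlap and the unadjusted p in limma was 0.0104 (adjusted p = 0.222). The pooled SD within groups was 0.81 for Serpina12 and 0.89 for Serpina4-ps1, larger than that of 99.8% and 99.9% of the tested probe sets.

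The hormone carriers overlapped between the groups. Serpina6, corticosteroid-binding globulin, read 10.26, 9.72 and 9.89 in TLR3-/- livers, against 9.89, 9.60 and 10.25 in TLR3wt livers. The difference was 0.048 (95% interval -0.44 to 0.54, limma adjusted p = 0.938). Serpina7, thyroxine-binding globulin, read 8.70, 8.86 and 7.40 in TLR3-/- livers, against 7.76, 7.64 and 8.57 in TLR3wt livers. In each group 1 mouse stood on the side of the other group. The difference was 0.33 (95% interval -0.74 to 1.41, limma adjusted p = 0.774), and in the fits without 1 mouse it lay between 0.064 (without TLR3-/- replicate 2) and 0.80 (without TLR3-/- replicate 3, limma unadjusted p = 0.0404, adjusted p = 0.352). Among 11 genes of hormone binding and glucocorticoid handling, 3 had an unadjusted p under 0.05 in limma, against 14.5% of all tested probe sets. All 3 were lower in TLR3-/- livers, and 0 passed limma's adjusted p. These were the glucocorticoid-inducible genes Tsc22d3 (-0.78), Per1 (-0.64) and Fkbp5 (-0.74). Per1 stood at 5 on all TLR3-/- arrays, which understates its difference. It was above 5 only on TLR3wt arrays, so it could only count as lower, and its p rests on a group without spread. The glucocorticoid receptor gene Nr3c1 differed by 0.14.

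Clade b was mostly at the floor. Of 24 matched genes 21 stood at 5 on all arrays, among them Serpinb2, a plasminogen activator inhibitor, and Serpinb9, the inhibitor of granzyme B. Serpinb6a, an inhibitor of cathepsin G, read 6.40, 6.28 and 6.43 in TLR3-/- livers, against 6.22, 6.29 and 6.36 in TLR3wt livers. The groups overlapped and the difference was 0.081 (95% interval -0.084 to 0.245, limma adjusted p = 0.646), with 0.046 without TLR3wt replicate 1 and 0.126 without TLR3-/- replicate 2. Serpinb1a, an inhibitor of neutrophil proteases, read 5.30, 5 and 5.50 in TLR3-/- livers and stood at 5 on all TLR3wt arrays. With values at the floor in both groups no fold is given. The log2 difference as deposited was 0.27 (limma adjusted p = 0.392), with 0.15 without TLR3-/- replicate 3 and 0.40 without TLR3-/- replicate 2. Serpinb6b was above 5 on 1 array, TLR3-/- replicate 1, at 5.04.

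The serpins of clades c, d, f and g are inhibitors of coagulation, fibrinolysis and complement, apart from Serpinf1, and none of these 5 genes differed by more than 0.038 in size. Serpinc1, antithrombin, read 11.33, 11.22 and 11.23 in TLR3-/- livers, against 11.21, 11.22 and 11.32 in TLR3wt livers. The difference was 0.012, and its 95% interval of -0.14 to 0.165 bounds a change of either sign. Serpind1, heparin cofactor II, read 10.64, 10.58 and 10.60 in TLR3-/- livers, against 10.53, 10.52 and 10.71 in TLR3wt livers, a difference of 0.023 (95% interval -0.143 to 0.189). For both genes the groups overlapped.

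Serpinf2, alpha-2-antiplasmin, read 11.25, 11.15 and 11.31 in TLR3-/- livers, against 11.13, 11.09 and 11.50 in TLR3wt livers. The TLR3-/- livers lay within the TLR3wt range, and the difference of -0.0037 (95% interval -0.294 to 0.287) became 0.126 without TLR3wt replicate 3, where the groups did not overlap. Serpinf1, pigment epithelium-derived factor, a non-inhibitory serpin, read 10.72, 10.62 and 10.61 in TLR3-/- livers, against 10.62, 10.63 and 10.63 in TLR3wt livers. Serping1, the C1 inhibitor, read 11.53, 11.62 and 11.62 in TLR3-/- livers, against 11.51, 11.60 and 11.77 in TLR3wt livers, a difference of -0.038 (95% interval -0.233 to 0.157). The limma adjusted p of these 5 genes lay between 0.865 and 0.992. TLR3wt replicate 3 held the highest value of Serpind1, Serpinf2 and Serping1.

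**Figure D4:**
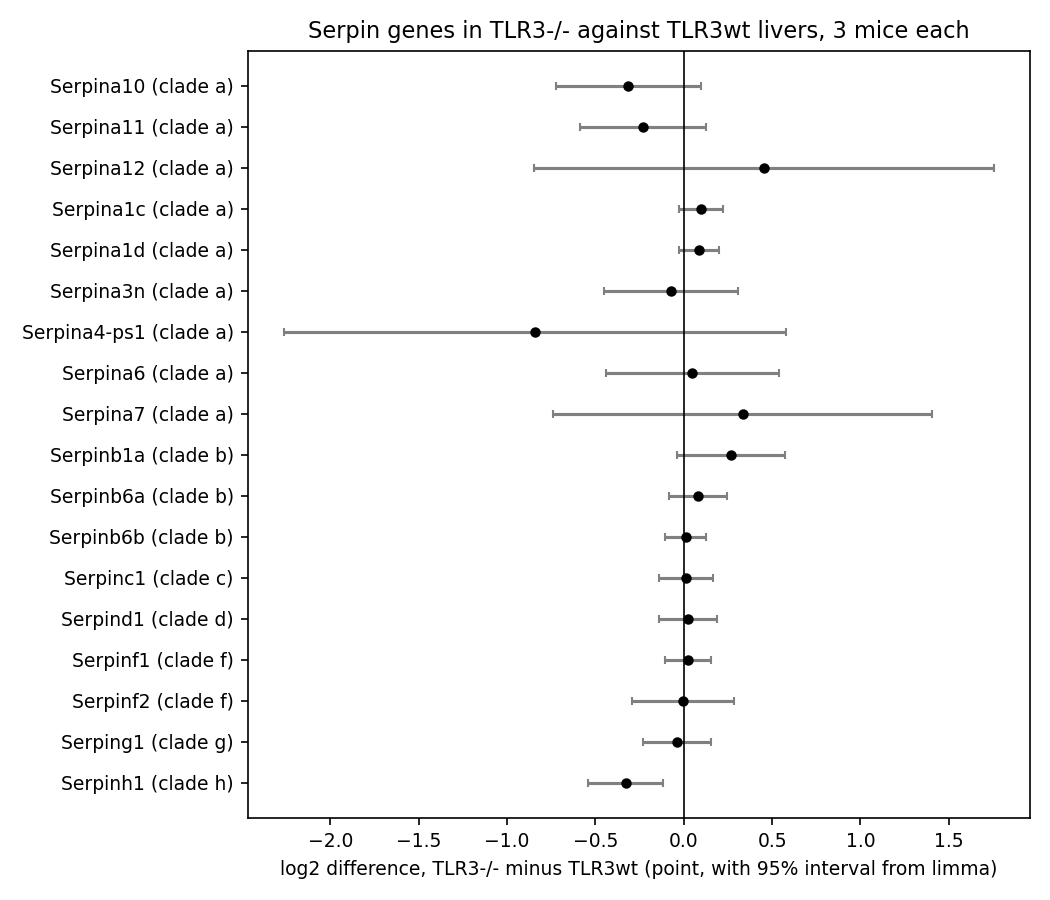
Log2 difference, TLR3-/- minus TLR3wt, of each of the 18 Serpin genes with its 95% interval from limma (horizontal axis, 3 mice in each group). The interval of Serpinh1 (-0.54 to -0.12) does not span 0, those of the other 17 genes do, and Serpina4-ps1, Serpina12 and Serpina7 have the widest intervals.

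Serpinh1, the collagen chaperone of the endoplasmic reticulum also known as HSP47, was the member with the smallest p. It read 5.29, 5.46 and 5.22 in TLR3-/- livers, against 5.62, 5.57 and 5.77 in TLR3wt livers. All TLR3-/- livers lay below all TLR3wt livers. The means were 5.32 ± 0.12 in TLR3-/- livers and 5.65 ± 0.10 in TLR3wt livers (SD, n = 3 each), a difference of -0.33 (95% interval -0.54 to -0.12) or 1.26-fold, with limma unadjusted p = 0.0091 and adjusted p = 0.199. The gene thus did not pass over all probe sets, and its signal was close to the floor of 5. The difference was -0.40 to -0.27 over all alternatives, with unadjusted p between 0.0051 and 0.032 and adjusted p of at least 0.181.

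Genes of collagen and its modification lay the same way. Of 16 measured, 14 had a lower mean in TLR3-/- livers (median -0.25, against 0.033 over all genes), and 0 passed limma's adjusted p. In limma 9 had an unadjusted p under 0.05 (8 of them lower), against 14.5% of all tested probe sets. The matrix protein gene Sparc read 7.63, 7.71 and 7.56 in TLR3-/- livers, against 7.98, 8.04 and 8.28 in TLR3wt livers. The basement membrane collagen gene Col4a1 had a difference of -0.31 and P4ha1, a prolyl hydroxylase of collagen, one of -1.02 (limma adjusted p = 0.163 and 0.174). Of 10 measured stellate cell and fibroblast markers 7 had a lower mean in TLR3-/- livers (median -0.013). Their summed linear signal was 1725 to 1843 in TLR3-/- and 1615 to 1771 in TLR3wt livers. The brightest of them, the proteoglycan gene Dcn, differed by 0.17, and the mean over the 10 markers, each relative to its TLR3wt mean, was -0.096, -0.0037 and -0.135 in TLR3-/- livers, against -0.090, -0.042 and 0.132 in TLR3wt livers. The stellate cell marker Des stood at 5 on all arrays, Lrat differed by 0.21, and Col3a1 and Col1a1 by -0.55 and -0.49. The part of these cells in the Serpinh1 value was not tested.

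Clades e and i were at the floor. Serpine3, Serpini1 (neuroserpin) and Serpini2 stood at 5 on all 6 arrays. Serpin genes without a probe set of their own under the rule were not analysed here.

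Genes of the protease systems in which serpins act were set beside them. Of 20 genes of coagulation and fibrinolysis, proteases and cofactors alike, 12 had a higher and 8 a lower mean in TLR3-/- livers (median 0.033). In limma 4 had an unadjusted p under 0.05, against 14.5% of all tested probe sets, and 0 passed the adjusted p. Those with the smallest p were F13b (0.19), a subunit of the fibrin-stabilising factor, the anticoagulant cofactor gene Pros1 (-0.40), and Thbd, encoding thrombomodulin. Thbd stood at 5 on all TLR3-/- arrays, against 5.25, 5.43 and 5.19 on the TLR3wt arrays. Thbd could thus only count as lower, and its p rests on a group without spread. Of 8 complement protease genes 4 were higher and 4 lower, and in 3 the groups did not overlap, against 20.1% of all tested probe sets. These were C1s1 (0.20) and C1ra (-0.20), targets of the C1 inhibitor, and Masp1 (0.20), with limma adjusted p of 0.336, 0.410 and 0.368. Of 6 measured membrane and kallikrein-like serine proteases 3 were higher and 3 lower in TLR3-/- livers (median -0.015), and 0 passed limma's adjusted p. In limma 1 had an unadjusted p under 0.05, against 14.5% of all tested probe sets. That gene, Pcsk6, a proprotein convertase, read 8.69, 8.97 and 8.79 in TLR3-/- livers, against 8.64, 8.52 and 8.24 in TLR3wt livers. Its groups did not overlap and differed by 0.35 (limma adjusted p = 0.289).

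The neutrophil and mast cell proteases Elane, Prtn3, Ctsg and Cma1 and the granzymes Gzma, Gzmb, Gzmk and Gzmm stood at 5 on all arrays. Of 8 measured leukocyte and lysosomal proteases 6 had a lower mean in TLR3-/- livers. Ctss, encoding cathepsin S of antigen-presenting cells, read 7.36, 7.19 and 7.63 in TLR3-/- livers, against 7.97, 8.41 and 8.19 in TLR3wt livers. The difference was -0.80 (limma adjusted p = 0.138), and Ctsc, the activator of granule proteases, had one of -0.73 (limma adjusted p = 0.215). Ctsh, next by p, went the other way by 0.118 (limma adjusted p = 0.449), with all TLR3-/- livers above all TLR3wt livers. Macrophage and Kupffer cell markers lay lower in 13 of 14 genes, with a summed linear signal of 1266 to 1978 in TLR3-/- and 2409 to 3291 in TLR3wt livers. Of these markers 0 passed limma's adjusted p of 0.05 (lowest 0.099). All 10 neutrophil markers stood at 5 on all arrays. The part of these cells in the protease values was not tested.

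Among protease inhibitors of other families, 9 of 19 genes had a higher and 10 a lower mean in TLR3-/- livers (median -0.0089), and 0 passed limma's adjusted p. Spint2, a Kunitz-type inhibitor, differed by 0.20, the macroglobulin gene Mug1 by 0.21 and Tfpi2 by -0.29. Markers of the labelled tissue were present: 8 of 8 annotated hepatocyte markers, such as Ttr and Apoa1, were measured, with a summed linear signal of 41137 to 42155 in TLR3-/- and 42989 to 43839 in TLR3wt livers. Of these markers 6 had a lower and 2 a higher mean in TLR3-/- livers (median -0.014). The groups did not overlap in 3, all lower, against 20.1% of all tested probe sets, and 0 passed limma's adjusted p.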

How the data were processed

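Per the submitters' processing notes, the authors made the deposited log2 values with Affymetrix Expression Console, using RMA, a method of background correction, quantile normalisation and probe set summary. The lowest value is exactly 5 on each array, no source used here says what set this floor, and differences that reach it are understated. No further scaling was applied, and 0 columns belonged to other samples. Groups came from the sample titles, and the 3 mice of a group were separate animals per the series design. Gene symbols came from the array annotation, and all 48 Serpin identifiers had the same symbol in the reference table (GRCm38.p6), which served only for names and gene order.

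The TLR3-/- livers were compared with the TLR3wt livers in limma 3.58.1 under R 4.3.3 (linear model with empirical Bayes, two-sided, Benjamini-Hochberg over all 16639 tested probe sets, genotype as the only term). The 18918 probe sets at 5 on all arrays were left out. Intervals are limma's. The members, lists, filter and motifs were chosen with earlier results of these data known, so lists are given by counts and medians without a test. Each list gene was represented by its brightest probe set. All values were given for members with non-overlapping groups, a difference of at least 0.5 or the brightest signal of a clade, and for most others measured; from each list other than the cell markers the genes with the smallest p were named, with Col1a1, Col3a1, Lrat, Des, Dcn and Nr3c1 added after their values were seen. Promoters were aligned globally with Biopython 1.88. The fit was tested on simulated data.

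Alternatives were quantile normalisation again, no filter, probe sets above 5 on all arrays, an intensity trend with robust eBayes, the replicate number as a block, the mean over the probe sets of a gene, and leaving out each mouse.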

Additional observations from a re-analysis of the deposited data

How the results depend on the processing

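None of the 18 Serpin genes passed limma's adjusted p of 0.05 under any of the 12 alternatives. Over all probe sets the 31 calls became 9 after quantile normalisation again, 0 without a filter (2018 at an unadjusted p under 0.05), 18 with probe sets above 5 on all arrays, 35 with an intensity trend and robust eBayes, and 0 to 13 in the fits without 1 mouse. The Serpin genes at an unadjusted p under 0.05 numbered 3 without a filter (Serpina1c and Serpina1d besides Serpinh1) and 2 with an intensity trend and robust eBayes (Serpina1c besides Serpinh1). They numbered 1 to 2 in the fits without 1 mouse. Those without TLR3-/- replicate 2, TLR3-/- replicate 3 and TLR3wt replicate 3 added Serpinb1a, Serpina7 and Serpina4-ps1. The p of Serpinb1a rests on TLR3wt values that all stood at the floor, without TLR3-/- replicate 2, which stood there too. Non-overlapping Serpin genes numbered 4 to 7 without 1 mouse, with 7 both without TLR3-/- replicate 2 and without TLR3wt replicate 3, while the share over all probe sets was 26.8% to 33.2% in those fits, above 20.1% since fewer mice overlap less often by construction. The family median was -0.0070 to 0.062 in those fits. Each gene had 1 probe set, so the mean over probe sets gave the same values. The arrays give no counts, and signal near 5 limits Serpinh1 and clade b.

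With the replicate block 4 probe sets passed, and 1 Serpin gene, Serpinh1, had an unadjusted p under 0.05. The labels give the same numbers in both groups. Same-numbered mice had correlations of their deviations of 0.048, -0.012 and -0.063, and differently numbered mice of -0.121 to 0.139. With 3 mice in a group these correlations cannot decide whether the numbers mark pairs. The main fit did not take them as pairs. It had no Serpin call that the block could remove, and the block leaves each difference unchanged. The limma unadjusted p of Serpinh1 was 0.0091 in the main fit and 0.031 with the block.

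Of 213 gene values under the alternatives, 195 kept the direction of the reported value, and 10 of the genes had none in the other direction. The count of 195 overstates stability, since several alternatives leave the difference of a gene unchanged by construction. These are no filter, probe sets above 5 on all arrays, the intensity trend, the replicate block and the mean over probe sets. Only quantile normalisation again and the fits without 1 mouse could turn a sign. After quantile normalisation again the difference turned to -0.00084 for Serpina6, -0.00075 for Serpinc1, -0.0032 for Serpind1 and -1.7e-05 for Serpinf1. In the fits without 1 mouse 8 genes took both signs: Serpina12 ranged between -0.18 (without TLR3wt replicate 3) and 0.88, Serpina3n between -0.17 and 0.074 (without TLR3wt replicate 3), Serpina6 between -0.11 and 0.21, Serpinc1 between -0.024 and 0.050, Serpind1 between -0.0076 and 0.083, Serpinf1 between -0.011 and 0.044, Serpinf2 between -0.077 and 0.126 (without TLR3wt replicate 3), and Serping1 between -0.094 and 0.033 (without TLR3wt replicate 3). The cause was not tested.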
